A study of Mus musculus with 6 samples.

Results

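The genes described here are Psmc3ip and 6 of its partners in homologous recombination, Mnd1, Dmc1, Rad51ap1, Brca2, Swi5 and Sfr1, measured in RNA sequencing libraries of the mouse hippocampus. These 7 genes, of 33385 with a row in the deposited table, were chosen by name. Psmc3ip was picked for its higher level in the knockdown libraries, so its own comparison is given as a description with no test. The partners were listed for the work of their proteins, with earlier results of these data known.

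The knockdown group was 3 libraries from Bcas2F/F mice that were given AAV2/9-Syn-cre, a virus whose synapsin promoter drives Cre in neurons, and whose genotype label is Bcas2 knockdown. The control group was 3 libraries from mice labelled WT that also carried Bcas2F/F and were given AAV-vehicle, so the floxed Bcas2 allele was present in both groups. The labels do not give sex, age, batch or whether a library is 1 animal, so the spread between libraries may be partly technical. The promoter limits Cre to neurons that the virus reached, whereas RNA came from hippocampal tissue with all its cells. In such bulk samples fewer cells of a type and less RNA per cell cannot be told apart.

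Homologous recombination repairs a broken DNA end by copying an intact, matching duplex. Recombinase proteins coat the resected single strand and search for the match, and DMC1 does so in meiosis. PSMC3IP, also called HOP2, forms a heterodimer with MND1 that helps the recombinase capture the duplex and invade it, and mice without it fail in meiosis. BRCA2 loads the recombinase, the Rad51ap1 protein helps joint molecules to form, and the SWI5-SFR1 pair stabilises the recombinase filament. The pathway works mainly in dividing cells after DNA replication, whereas hippocampal neurons no longer divide. PSMC3IP is also known as a nuclear receptor coactivator, and its name comes from binding the proteasome subunit PSMC3.

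Bcas2, the targeted gene and a subunit of the spliceosomal PRP19 complex, had 9.08, 9.17 and 8.87 FPKM in knockdown libraries and 9.87, 9.71 and 9.44 FPKM in control libraries. FPKM is a level per gene length and library size. The edgeR log2 fold change of Bcas2 was -0.07 (SE 0.0649, adjusted p = 0.861), with a 95% interval of 85.5% to 106% of the control level. Its groups did not overlap in FPKM, which also held for 13.0% of all tested genes. The test thus did not show a lower Bcas2 RNA level in these libraries, and the name knockdown follows the labels. Total counts per library ran from 55914768 to 76481458. Counts of Y-linked genes were 0 in every knockdown library and in control library 1, against 10430 and 10594 in control libraries 2 and 3. Xist, an RNA of female cells, had 49.5, 58.6 and 46.8 FPKM in knockdown libraries and 43.9, 0.00137 and 0.0213 FPKM in control libraries. By these transcripts only control libraries 2 and 3 were from males, so sex is partly confounded with group in every comparison here. Ttr, a choroid plexus transcript, had 0.349, 12.3 and 5.15 FPKM in knockdown libraries and 11.2, 12.9 and 4180 FPKM in control libraries, so control library 3 stood apart. The hippocampal label was checked against 10 markers of its neurons, whose summed level was 1190 to 1330 FPKM in knockdown libraries and 1240 to 1330 FPKM in control libraries.

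Psmc3ip lies on the minus strand of chromosome 11 at 100982649 to 100986262 (GRCm39, as the deposited table gives it), and the table lists 4 transcripts for it. The sequences below come from GRCm38, an older build than that of the table, so their coordinates are not on the same scale. The promoters of Psmc3ip and Mnd1 are shown because the 2 proteins act as a pair while the RNA levels of the 2 genes were far apart. Each runs from 250 bases before to 50 bases after the RefSeq start (GRCm38.p6), 5′ to 3′ on the gene's own strand, and the capitals mark CCAAT, the only searched motif found in either.
Psmc3ip promoter, chr11:101095386-101095685, minus strand: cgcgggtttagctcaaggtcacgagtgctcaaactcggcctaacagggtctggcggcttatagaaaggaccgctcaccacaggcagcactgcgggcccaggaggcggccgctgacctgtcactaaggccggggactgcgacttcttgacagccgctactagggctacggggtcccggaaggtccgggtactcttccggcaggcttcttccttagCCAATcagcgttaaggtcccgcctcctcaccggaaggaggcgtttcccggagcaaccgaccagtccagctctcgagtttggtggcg
Mnd1 promoter, chr3:84155737-84156036, minus strand: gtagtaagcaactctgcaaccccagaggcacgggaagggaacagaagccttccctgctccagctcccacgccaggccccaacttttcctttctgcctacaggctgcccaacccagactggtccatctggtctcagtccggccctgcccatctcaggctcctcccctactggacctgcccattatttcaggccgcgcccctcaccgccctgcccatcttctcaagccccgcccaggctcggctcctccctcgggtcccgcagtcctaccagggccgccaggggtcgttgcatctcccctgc

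The Psmc3ip promoter held 24 CpG dinucleotides and 62.7% G and C, and the Mnd1 promoter held 12 and 65.0%. Over all 32851 promoters in the RefSeq table the medians were 7 CpG and 52.7%. Of all promoters, 80.0% had fewer CpG than Psmc3ip and 60.4% fewer than Mnd1. All 7 genes matched a promoter, and the CpG count of the other 5 ran from 18 in Dmc1 to 43 in Sfr1. On either strand, CCAAT occurred in the promoters of Psmc3ip, Rad51ap1, Swi5 and Sfr1 and in 37.4% of all promoters. TTCCCGCC, an E2F-type motif, occurred in that of Rad51ap1 and in 2.19% of all. TGACGTCA, the cyclic AMP response element, occurred in that of Brca2 and in 1.79% of all. CACGTG (7.15% of all promoters) and TTTCGCGC (0.323%) were in none of the 7. Such matches describe letters in a window and were not tested as binding sites.

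GENCODE M21 annotates 4 Psmc3ip transcripts, and all 4 have a match in the deposited table. A protein-coding form has 1291 bases, 2 retained-intron forms have 1030 and 1115 bases, and a form marked for nonsense-mediated decay has 664 bases. Nonsense-mediated decay removes transcripts with an early stop codon. The junction into exon 4 is shown because that last form differs from the coding form there, by a splice acceptor 22 bases upstream that adds the bases in capitals. By their lengths the 2 forms also differ elsewhere. In both, exon 4 begins its genomic span at 101093681 on chromosome 11 (GRCm38), and the span ends at 101093792 in the coding form and at 101093814 in the other.
Coding form, junction into exon 4: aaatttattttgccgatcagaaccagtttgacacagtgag
Decay form, junction into exon 4: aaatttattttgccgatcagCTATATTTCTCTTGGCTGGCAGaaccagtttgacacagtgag
The deposited values are per gene and sum over these forms, so the level of each form was not analysed here.

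Psmc3ip stood at a level several-fold higher in the knockdown hippocampus, in every library of that group. It had 3.21, 3.59 and 2.80 FPKM in knockdown libraries, against 0.575, 1.10 and 0.899 FPKM in control libraries. All 3 knockdown libraries lay above all 3 control libraries, and the lowest knockdown value was 2.55 times the highest control value. The counts behind these levels were 402, 426 and 308 in knockdown libraries and 87, 129 and 104 in control libraries. The means were 3.20 ± 0.396 FPKM in knockdown libraries and 0.858 ± 0.265 FPKM in control libraries (SD, n = 3 each), a ratio of 3.73. The edgeR log2 fold change was 1.92, which is 378% of the control level.

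Relative spread was wider in the control group, with a coefficient of variation of 12.4% in knockdown libraries and 30.9% in control libraries. The highest library exceeded the lowest 1.28 times within the knockdown group and 1.91 times within the control group. Control library 1 was the lowest, and it was also the one control library without Y-linked counts. With the 4 libraries that have none, and so with control library 1 alone as control, the log2 fold change was 2.47. Without control library 3, which held the choroid plexus transcripts, it was 1.96. Leaving out each library in turn gave 1.70 to 2.13.

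Among the 13682 tested genes that averaged 1 FPKM or more, 7 had a larger log2 fold change than Psmc3ip and 36 a larger absolute one. The 36 include 12 choroid plexus markers (log2 fold changes -7.85 to -2.56), which were far higher in control library 3 than in any other. The 7 were Lcn2 (4.97), Gm2427 (4.03), Adora2a (2.97), Etnppl (2.93), Plin4 (2.83), Hif3a (2.74) and Lrg1 (2.48). None of these is a recombination gene on the lists used here. Lcn2, an iron-siderophore binding protein of inflammation, averaged 2.21 FPKM in knockdown libraries and 0.0661 FPKM in control libraries. These ranks describe a gene that was picked for its level and carry no test.

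**Figure D1:**
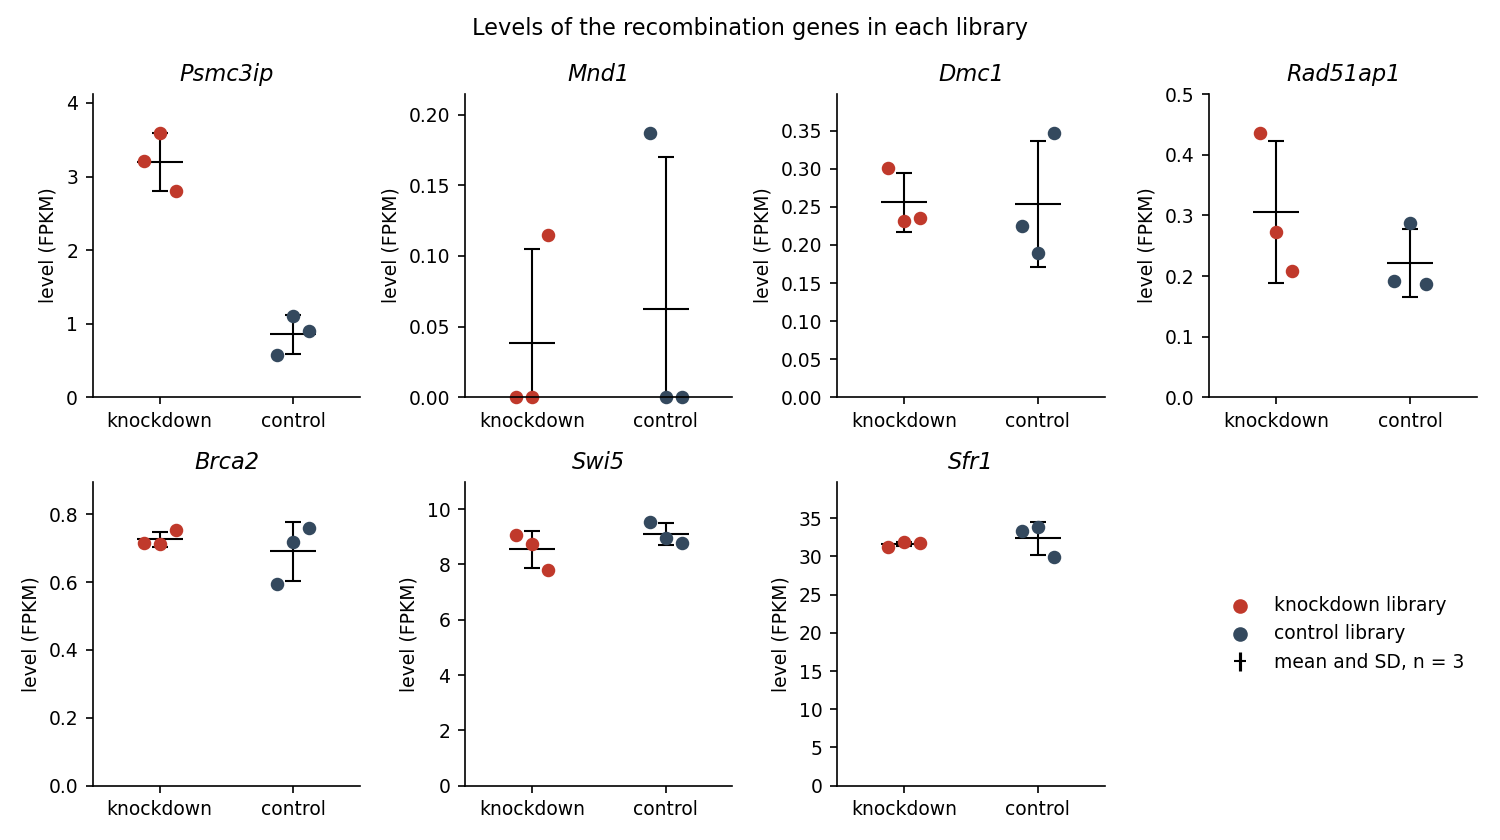
Level of each gene in FPKM (linear axis from 0, scaled per gene) in the 3 knockdown libraries (red) and the 3 control libraries (dark blue), with the mean and SD as bars, which for Mnd1 stop at the axis. Psmc3ip sits between 2.80 and 3.59 FPKM in knockdown libraries and between 0.575 and 1.10 FPKM in control libraries, whereas the groups overlap in each of the other 6 genes.

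Mnd1 encodes the partner that PSMC3IP needs for its work in meiosis, and it was at the edge of detection. It had 0, 0 and 0.115 FPKM in knockdown libraries and 0.187, 0 and 0 FPKM in control libraries. The counts were 0, 0 and 7 in knockdown libraries and 14, 0 and 0 in control libraries, so a single library of each group held all of them. A count of 3, the most that a count of 0 allows at 95% confidence, corresponds to 0.0479 and 0.0506 FPKM in the first 2 knockdown libraries and to 0.0512 and 0.0525 FPKM in the last 2 control libraries, for counting error only. The deposited counts pile up at 4 and 8, so a read pair may add more than 1 count. If it adds 4, the same limits would be 0.192, 0.202, 0.205 and 0.210 FPKM. Mnd1 did not pass the filter on low counts. An exact two-sided permutation test of log2(FPKM + 1) gave p = 1.0 (n = 3 each), where the smallest p this design allows is 0.1. A difference in Mnd1 was not detectable at this depth, and in no library did its level reach that of Psmc3ip.

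Dmc1, the recombinase of meiosis, was low in both groups. It had 0.301, 0.232 and 0.236 FPKM in knockdown libraries and 0.225, 0.190 and 0.347 FPKM in control libraries, on counts of 30 to 53. The highest and the lowest value both came from control libraries. The log2 fold change was 0.05 (SE 0.39, 95% interval -0.86 to 0.96, adjusted p = 0.984 by edgeR's quasi-likelihood test). That interval covers 55.1% to 195% of the control level.

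Rad51ap1, whose protein helps DNA strands to pair, had 0.436, 0.273 and 0.208 FPKM in knockdown libraries and 0.192, 0.287 and 0.187 FPKM in control libraries. Knockdown library 1 was the highest and the other 2 knockdown libraries lay within the control range. The log2 fold change was 0.48 (SE 0.364, 95% interval -0.37 to 1.34, edgeR adjusted p = 0.838), and it was 0.15 without knockdown library 1. The interval reaches from 77.3% to 252% of the control level.

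Brca2, whose protein delivers recombinase to single-stranded DNA, had 0.714, 0.711 and 0.752 FPKM in knockdown libraries and 0.593, 0.719 and 0.760 FPKM in control libraries. Control library 1 was the lowest and the other 5 libraries lay close together. The log2 fold change was 0.10 (SE 0.14, 95% interval -0.23 to 0.43, edgeR adjusted p = 0.914), an interval of 85.2% to 134% of the control level.

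Swi5 and Sfr1, the heterodimer that steadies the recombinase filament, were the most abundant of the 7 genes and the most precisely measured. Swi5 had 9.07, 8.75 and 7.81 FPKM in knockdown libraries and 9.55, 8.97 and 8.78 FPKM in control libraries. Its groups overlapped, with knockdown library 3 the lowest. The log2 fold change was -0.07 (SE 0.0808, 95% interval -0.26 to 0.12, edgeR adjusted p = 0.893). Sfr1 had 31.3, 31.9 and 31.7 FPKM in knockdown libraries and 33.3, 33.9 and 29.9 FPKM in control libraries. The knockdown values lay inside the control range. The log2 fold change was -0.01 (SE 0.0719, 95% interval -0.18 to 0.16, edgeR adjusted p = 0.985). The intervals cover 83.6% to 109% of the control level for Swi5 and 88.4% to 112% for Sfr1.

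Of the 5 partners that passed the count filter, 0 had an edgeR adjusted p under 0.05 and 0 an unadjusted p under 0.05. Over the whole table edgeR called 0 of 20946 tested genes (0.0%), and 1296 (6.19%) had an unadjusted p under 0.05. None of the 6 partners had groups that did not overlap in FPKM, against 2716 of all tested genes (13.0%). DESeq2 called 74 genes, 0.486% of the 15221 to which it gave an adjusted p, with Rad51ap1, Brca2, Swi5 and Sfr1 not among them. Dmc1 got no adjusted p from DESeq2 and Mnd1 was not in that fit. Exact permutation p-values of the 5 partners were 0.3 for Rad51ap1, 0.4 for Swi5, 0.6 for Sfr1, 0.8 for Dmc1 and 0.9 for Brca2 (two-sided, n = 3 each).

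**Figure D2:**
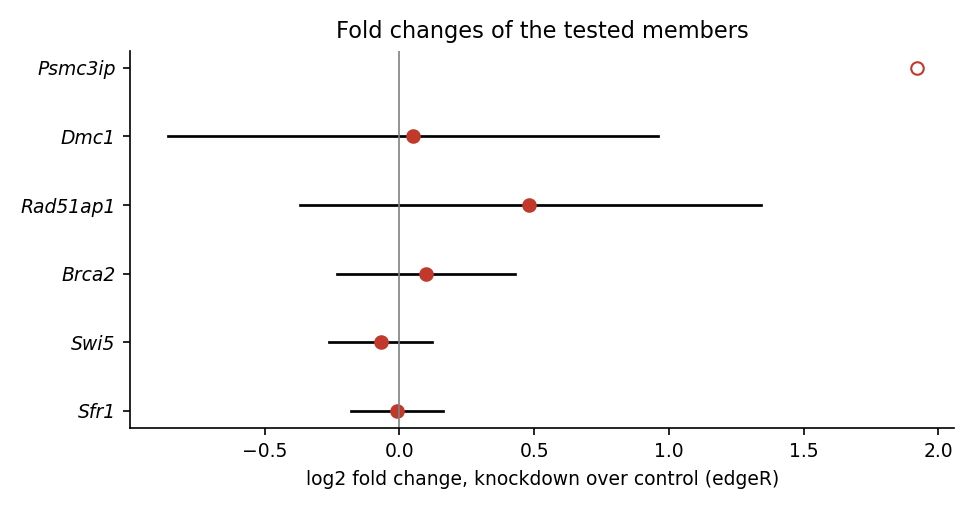
edgeR log2 fold change, knockdown over control, of the 6 genes that passed the count filter, with 95% intervals as lines for the 5 tested partners. Psmc3ip (open circle, 1.92) carries no interval because it was picked for this difference, and all 5 partner intervals cross 0.

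The order of levels in FPKM was alike in both groups at the top. In knockdown libraries it ran Sfr1, Swi5, Psmc3ip, Brca2, Rad51ap1, Dmc1 and Mnd1 by mean, and the ranges of neighbours overlapped only for Rad51ap1 and Dmc1. In control libraries it ran Sfr1, Swi5, Psmc3ip, Brca2, Dmc1, Rad51ap1 and Mnd1. There the ranges of Psmc3ip and Brca2 overlapped, as did those of Dmc1 and Rad51ap1. Psmc3ip thus stood clear of Brca2 in knockdown libraries, at 3.20 against 0.726 FPKM, and not in control libraries, at 0.858 against 0.691 FPKM. Psmc3ip and Mnd1, whose proteins work as a pair, had 3.20 against 0.0385 FPKM in knockdown libraries and 0.858 against 0.0622 FPKM in control libraries. Swi5 and Sfr1, the other such pair, had 8.54 and 31.6 FPKM in knockdown libraries and 9.10 and 32.4 FPKM in control libraries.

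The tested genes around Psmc3ip on chromosome 11 had log2 fold changes of -1.90 to 0.31, against its 1.92. Of 14 genes with any part within 100 kb, 13 were tested, 8 had a positive and 5 a negative log2 fold change, and the median was 0.01, beside 0.00 over all tested genes. None passed the test, as over the whole table. Of the 13, 1 had an unadjusted p under 0.05 (6.19% over all tested genes), and 3 had groups that did not overlap in FPKM, Gm57395, Tubg1 and Tubg2 (13.0% over all). Mlx, a transcription factor gene of the MAX network, lies on the opposite strand and overlaps the 3′ end of Psmc3ip by 385 bases. It had 10.9, 9.35 and 12.1 FPKM in knockdown libraries and 9.34, 11.0 and 9.52 FPKM in control libraries. Its log2 fold change was 0.14 (SE 0.127, edgeR adjusted p = 0.866), and the groups overlapped. Library preparation marked the strand, but the strand setting of the counting is not given in the sources used here, so reads in the overlap may have gone to either gene.

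Retreg3, an endoplasmic reticulum turnover receptor gene on the same strand, ends 885 bases before Psmc3ip starts. It had 17.8, 16.5 and 16.7 FPKM in knockdown libraries and 18.6, 17.6 and 17.5 FPKM in control libraries, with overlapping groups and a log2 fold change of -0.05 (SE 0.0646, edgeR adjusted p = 0.902). Downstream, Coasy, which makes coenzyme A, averaged 8.70 FPKM in knockdown and 8.28 FPKM in control libraries (log2 fold change 0.10). Naglu, a lysosomal enzyme, averaged 3.75 FPKM in knockdown and 4.01 FPKM in control libraries (-0.07). Hsd17b1, an enzyme of estradiol synthesis, had 0.183, 0 and 0 FPKM in knockdown libraries and 0.239, 0.335 and 0.137 FPKM in control libraries (-1.90, SE 1.33, edgeR adjusted p = 0.833). Its counts were too low to tell the groups apart. Atp6v0a1, a proton pump subunit, averaged 75.1 FPKM in knockdown and 74.8 FPKM in control libraries (0.03).

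Gm57395 had 3.77, 4.16 and 4.49 FPKM in knockdown libraries and 7.28, 4.72 and 7.19 FPKM in control libraries, with groups that did not overlap. It was the 1 neighbour with an unadjusted p under 0.05 (log2 fold change -0.60, SE 0.198, edgeR adjusted p = 0.792). The γ-tubulin genes upstream were Tubg1, with 13.4 FPKM in knockdown and 11.3 FPKM in control libraries on average (0.27, edgeR adjusted p = 0.792), and Tubg2, with 15.9 FPKM in knockdown and 17.9 FPKM in control libraries on average (-0.15, edgeR adjusted p = 0.798). They lay on opposite sides of 0. Farther upstream the log2 fold changes were 0.00 for Plekhh3, 0.01 for the axonal adhesion gene Cntnap1, 0.31 for the chemokine receptor gene Ccr10 and 0.25 for Ezh1, a histone H3 methyltransferase. The microRNA gene Mir6928 did not pass the count filter.

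**Figure D3:**
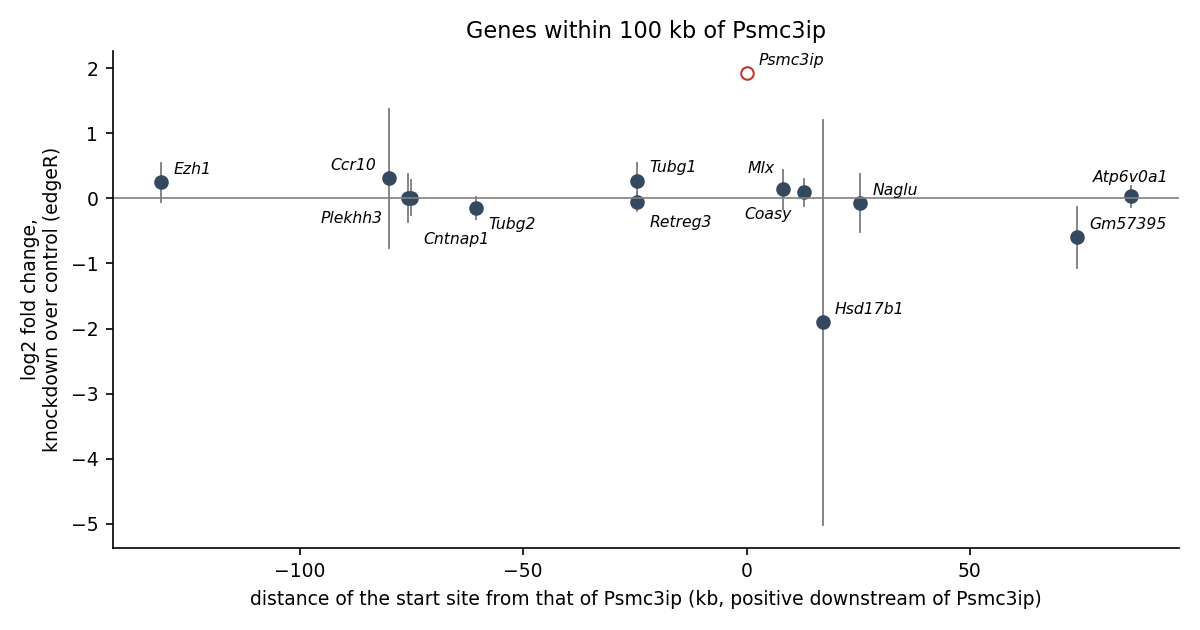
edgeR log2 fold change, knockdown over control, of genes with any part within 100 kb of Psmc3ip, against the distance of their start sites from that of Psmc3ip in kb, positive downstream. Lines are 95% intervals; Psmc3ip (open circle, 1.92) has none, and the 13 tested neighbours lie between -1.90 and 0.31.

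The rest of the recombination machinery was described by lists, from which Psmc3ip was left out, and edgeR called 0 genes on every list. Over all 20946 tested genes 10449 had a positive and 10497 a negative log2 fold change, with a median of 0.00. Among factors that load the recombinase or remodel its filament, 22 of 23 were tested, 12 positive and 10 negative, with a median of 0.05. Brca1, which recruits the loading complex, averaged 0.116 FPKM in knockdown and 0.167 FPKM in control libraries (-0.50, SE 0.349, edgeR adjusted p = 0.833). Rad51ap2, named as a relative of Rad51ap1, averaged 0.238 FPKM in knockdown and 0.342 FPKM in control libraries (-0.50, SE 0.358, edgeR adjusted p = 0.838). Wdr48, a deubiquitinase cofactor, averaged 9.30 FPKM in knockdown and 8.81 FPKM in control libraries (0.10). The groups overlapped in every tested gene of this list.

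End resection, which lays bare the single strand, gave 8 positive and 10 negative values over its 18 genes, with a median of -0.02. The groups did not overlap in 3 of them (13.0% over all tested genes). Rad9a, a subunit of the checkpoint clamp, had 3.03, 3.03 and 2.96 FPKM in knockdown libraries and 4.04, 3.35 and 4.22 FPKM in control libraries (-0.34, SE 0.146, edgeR adjusted p = 0.792). Atrip, the partner of the ATR kinase, had a log2 fold change of 0.17, and Rpa3, a subunit of the single-strand binding complex, one of 0.40. The junction resolution list had 6 of 8 genes tested, 3 positive and 3 negative, with a median of 0.01 and Slx1b (0.14), Rmi1 (0.15) and Slx4 (-0.07) first by p.

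Of the Fanconi anaemia genes, which act where crosslinks block replication, 11 of 12 were tested, 6 positive and 5 negative, with a median of 0.07. The groups did not overlap in 5 of the 11 (13.0% over all tested genes), of which Fancb, Fancm and Fancg lay higher and Fanca and Fancc lower. An unadjusted edgeR p under 0.05 was found for 0 of the 11 (6.19% over all). Fancb, of the core complex, had 0.767, 0.760 and 0.730 FPKM in knockdown libraries and 0.516, 0.520 and 0.617 FPKM in control libraries (0.47, SE 0.216, edgeR adjusted p = 0.792). Fancm, a DNA translocase, averaged 1.76 FPKM in knockdown and 1.49 FPKM in control libraries (0.26), and Fance, also of the core complex, averaged 5.62 FPKM in knockdown and 4.58 FPKM in control libraries (0.32). The groups overlapped for Fance. On the other side, Fanca averaged 0.165 FPKM in knockdown and 0.245 FPKM in control libraries (-0.54, edgeR adjusted p = 0.798), and Fancc 0.451 FPKM in knockdown and 0.617 FPKM in control libraries (-0.42, edgeR adjusted p = 0.798). None of these genes passed the test.

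Genes of meiotic recombination and synapsis, the process in which PSMC3IP is best known, had the widest range of the recombination lists, from -1.27 to 1.37. Of 45 genes, 41 were in the table and 33 were tested, 21 positive and 12 negative, with a median of 0.15. Levels were low, with 14 genes under a mean of 0.1 FPKM. An unadjusted p under 0.05 was found for 4 of the 33 genes, each with an edgeR adjusted p of 0.792, beside 6.19% of all tested genes. The same 4 were the genes whose groups did not overlap, a share close to the 13.0% of all tested genes. They were Iho1, needed for meiotic breaks, and Syce2, Sycp3 and Sycp2, which build the synaptonemal complex that joins paired chromosomes.

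Syce2 had 1.46, 1.98 and 1.37 FPKM in knockdown libraries and 0.805, 1.20 and 0.999 FPKM in control libraries (0.69, SE 0.259). Sycp3 had 1.02, 1.14 and 0.968 FPKM in knockdown libraries and 0.629, 0.247 and 0.640 FPKM in control libraries (1.05, SE 0.406). Sycp2 had 0.353, 0.483 and 0.303 FPKM in knockdown libraries and 0.213, 0.286 and 0.239 FPKM in control libraries (0.65, SE 0.273). These 3 genes of the synaptonemal complex, taken from the 4 whose groups did not overlap, lay on the same side as Psmc3ip. That shared direction is a description and was not tested. Of other genes of the complex, Syce1 had overlapping groups (0.67), and Syce3 and Tex12 did not pass the count filter. Iho1 lay on the other side, with 0.119, 0.185 and 0.0794 FPKM in knockdown libraries and 0.272, 0.412 and 0.264 FPKM in control libraries (-1.27, SE 0.446). Sycp1, which spans the same complex, had 0.277, 0.350 and 0 FPKM in knockdown libraries and 0.541, 0.00139 and 0.675 FPKM in control libraries, with overlapping groups.

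Of 11 germ cell markers, which include the meiotic gene Sycp3, 9 were in the table and 4 were tested, 2 positive and 2 negative, and 6 had a mean under 0.1 FPKM. Their summed level was 2.80 to 3.74 FPKM in knockdown libraries and 2.06 to 2.58 FPKM in control libraries, most of it from Dazl, Ddx4 and Sycp3. Dazl, an RNA-binding protein of germ cells, averaged 1.12 FPKM in knockdown and 0.885 FPKM in control libraries, and Ddx4, a germ cell helicase, 0.681 FPKM in knockdown and 0.870 FPKM in control libraries. The sperm protamine gene Prm1 had 0, 0.106 and 0.063 FPKM in knockdown libraries and 0 FPKM in every control library. Mael, also on this list, had 0.103, 0.0267 and 0.204 FPKM in knockdown libraries and 0 FPKM in every control library. Neither passed the count filter. Tdrd1 (-0.42) and Acrv1, seen only in control library 2 at 0.0293 FPKM, lay on the other side. Of 15 repressors that keep germ cell genes silent in somatic cells, 5 were positive and 10 negative, with a median of -0.04. E2f6 averaged 5.40 FPKM in knockdown and 6.23 FPKM in control libraries (-0.18, SE 0.101, edgeR adjusted p = 0.807). Pcgf6 (-0.18) and L3mbtl2 (0.17), of the same Polycomb complex, followed it in the order of p.

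Psmc3, whose protein gave Psmc3ip its name, averaged 37.8 FPKM in knockdown and 38.9 FPKM in control libraries (-0.02, SE 0.0586, edgeR adjusted p = 0.965). With the nuclear receptors and Atf4 reported to bind PSMC3IP, 7 of 9 genes were positive and 2 negative, with a median of 0.08. Thrb, the thyroid hormone receptor β gene, had a log2 fold change of 0.26 (SE 0.132, edgeR adjusted p = 0.798), Thra one of 0.14 and Atf4 one of 0.08.

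Proliferation markers, genes of DNA replication and cell division, lay mostly on the negative side. Of 20 genes, 19 were tested, 4 positive and 15 negative, with a median of -0.30 beside 0.00 over all tested genes. The groups did not overlap in 6, where 13.0% of all tested genes did not. An unadjusted edgeR p under 0.05 was found for 0 of the 19, beside 6.19% of all tested genes. Levels were low, with 5 genes under a mean of 0.1 FPKM. Their summed level was 23.8 to 24.6 FPKM in knockdown libraries and 26.7 to 29.1 FPKM in control libraries. The largest part of it was Pcna, a replication gene, at 10.2 FPKM in knockdown and 11.3 FPKM in control libraries on average (-0.12). Rrm2, a subunit of ribonucleotide reductase, had a log2 fold change of -1.05 (SE 0.478, edgeR adjusted p = 0.792), Cdk1 one of -1.07 and Cenpf one of -0.80.

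**Figure D4:**
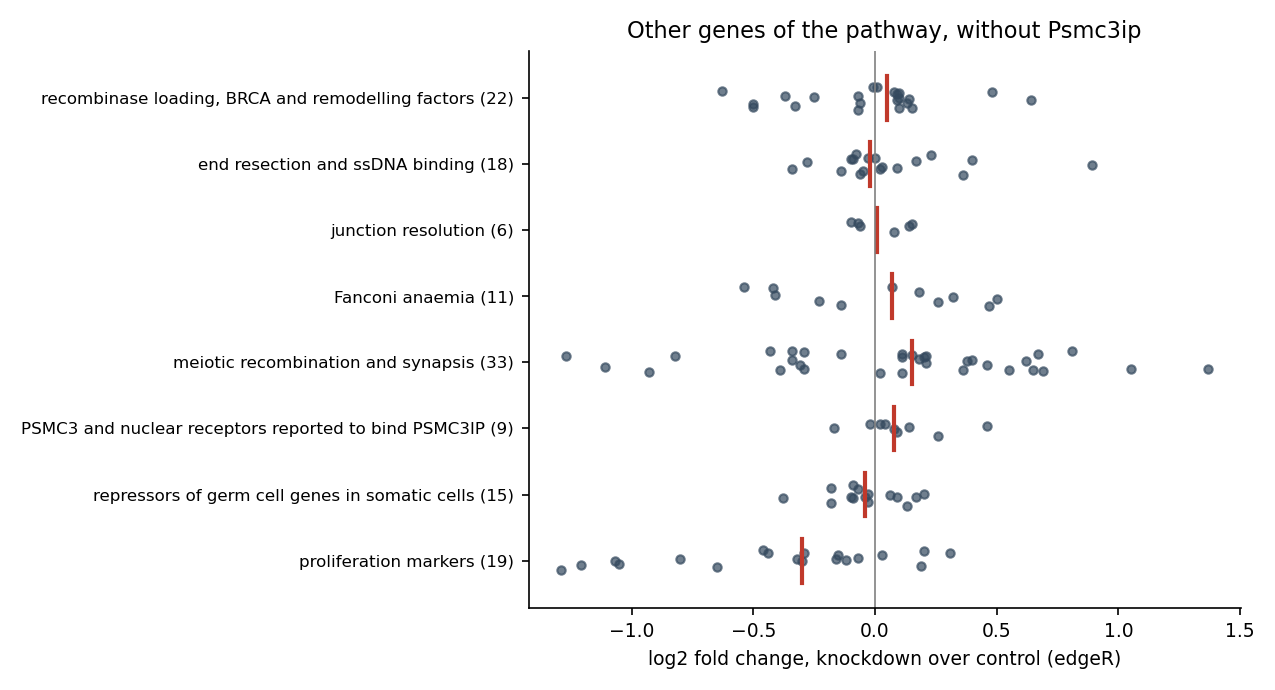
edgeR log2 fold change, knockdown over control, of each tested gene (points) on the pathway lists without Psmc3ip, with the number tested in brackets and the list median as a red line. Medians lie between -0.04 and 0.15 except for proliferation markers at -0.30; none of the genes passed the test.

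Markers of other cell types moved with the groups to different degrees. The 12 choroid plexus markers summed to 25.9 to 33.1 FPKM in knockdown libraries and 41.0 to 4920 FPKM in control libraries, and the 8 oligodendrocyte markers to 605 to 625 FPKM in knockdown libraries and 744 to 1170 FPKM in control libraries. The log2 fold changes were negative for all 12 and all 8, with medians of -4.11 and -0.60, and no marker was at 0 in every library. Of the 8 oligodendrocyte markers, 7 had groups that did not overlap (13.0% over all tested genes). An unadjusted edgeR p under 0.05 was found for 6 of them (6.19% over all). For the 12 choroid plexus markers these counts were 3 and 11. Without control library 3 the choroid plexus median was -0.35, with 8 of 12 negative, and the oligodendrocyte median was -0.71, with 8 of 8 negative. The summed choroid plexus level was 54.7, 41.0 and 4920 FPKM in control libraries 1, 2 and 3, and the oligodendrocyte level 1170, 821 and 744 FPKM. Astrocyte markers summed to 477 to 502 FPKM in knockdown libraries and 493 to 511 FPKM in control libraries, a sum carried by Slc1a2 and Aldoc. Of the 7 astrocyte markers 6 were negative, among them Slc1a2 at 100% of the control level. The groups did not overlap in 5 (13.0% over all tested genes), and 3 had an unadjusted edgeR p under 0.05 (6.19% over all). Aldoc was in both of these counts and went the other way, with 171 FPKM in knockdown and 144 FPKM in control libraries on average (0.27, edgeR adjusted p = 0.792). Gfap, the astrocyte filament gene, averaged 38.9 FPKM in knockdown and 60.8 FPKM in control libraries (-0.62, edgeR adjusted p = 0.792), and Aqp4, a water channel gene, 13.2 FPKM in knockdown and 23.4 FPKM in control libraries (-0.80, edgeR adjusted p = 0.792). Microglial markers summed to 124 to 136 FPKM in knockdown libraries and 112 to 135 FPKM in control libraries. The part of oligodendrocyte and astrocyte content in the Psmc3ip difference was not tested.

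The 5 genes whose log2 CPM followed Psmc3ip most closely over the 6 libraries, among 13681 tested genes that averaged 1 FPKM or more, were Tmem69 (Pearson r 0.990), mt-Co3 (0.989), Gm28437 (0.988), Bcl9 (0.988) and Dnaaf11 (0.983). All 5 had groups that did not overlap (13.0% over all tested genes). A choice by likeness to Psmc3ip, itself picked for its higher level in knockdown libraries, favours such genes. The points also share library and depth, so the values of r are a description. The differences of the 5 genes were smaller than that of Psmc3ip. Tmem69, a transmembrane protein gene, had 4.61, 5.08 and 4.68 FPKM in knockdown libraries and 2.85, 3.47 and 3.48 FPKM in control libraries, with control library 1 the lowest as for Psmc3ip. The log2 fold change was 0.57 for Tmem69, 0.17 for the mitochondrial cytochrome oxidase gene mt-Co3, 0.18 for Gm28437, 0.07 for the Wnt coactivator gene Bcl9 and 0.46 for the ciliary gene Dnaaf11. The values of mt-Co3 and Gm28437 were nearly the same in each library, so the counting may have credited shared reads to both. Of the partners only Swi5 and Sfr1 averaged 1 FPKM or more and could enter this comparison, and neither was among the 5.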

How the data were processed

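RNA was measured in 6 hippocampal libraries, 3 per group, grouped by GEO's labels. Per the labels' protocols, poly(A) RNA was made into strand-marked libraries and sequenced from both ends. Per the submitters' processing notes, the authors used the build GRCm39 with HISAT2 2.2.1, cutadapt 1.9, edgeR, DESeq2 and StringTie 2.1.6. Not given in the sources used here are the annotation release, the counting and its strand setting.

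The deposited table holds estimated counts and the authors' FPKM values, scaled by gene length and library, for 33385 genes. The deposited estimated counts were already whole, so rounding changed none. Count divided by FPKM was constant for a gene once 1 factor per library was removed (median SD 0.000593 on the log2 scale, 15177 genes), so both units hold the same measurement. Total counts were 55914768 to 76481458, and no pair of libraries of the same group agreed within sampling noise.

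The main test was edgeR 4.0.16 (R 4.3.3), quasi-likelihood F test, TMM scaling and filterByExpr, which kept 20946 genes, with Benjamini-Hochberg adjustment over these and a threshold of 0.05. Standard errors, p-values and intervals are from that fit. Exact permutation tests (scipy 1.17.1) took log2(FPKM + 1) through all 20 ways to assign 3 and 3 libraries. DESeq2 1.42.0, limma 3.58.1, other scalings, filters and pseudocounts, counts divided by 4, a replicate block and leaving out libraries were alternatives. The scripts were tested on simulated data. Replicate numbers did not pair libraries (correlations of deviations -0.0117, -0.0523 and -0.0994).

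The members and lists were chosen with earlier results of these data known. Genes were named by a rule: all 7 genes, up to 3 genes per list with the smallest edgeR p, all tested genes within 100 kb, and the 5 most correlated of the genes that averaged 1 FPKM or more (log2 CPM, prior count 2). The genes with a larger fold change than Psmc3ip were added after their values were seen. So were Sycp1, Sycp2, Syce1, Syce3, Tex12, Psmc3, Pcna, Fanca, Fancc, Fancg, Gfap, Aqp4, Aldoc, Slc1a2, Dazl, Ddx4, Prm1, Mael, Tdrd1, Acrv1 and Xist. Neighbours used the table's GRCm39 coordinates, and sequences came from RefSeq and GENCODE on GRCm38. A list of recombinase genes is not reported here.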

Additional observations from a re-analysis of the deposited data

How the results depend on the processing

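Psmc3ip was picked for its higher level in knockdown libraries, so these alternatives describe the size of its difference and do not test it. Its log2 fold change of 1.92 ran from 1.70 to 2.13 under 12 of 15 alternatives. It was 1.18 by limma on log2(FPKM + 1), with and without the filter, since a pseudocount of 1 is as large as its level, and 2.47 with the 4 libraries without Y-linked counts. Leaving out each library gave 1.70 to 2.13, and the replicate block gave 1.95. No alternative brought a partner past the threshold, with a lowest adjusted p of 0.932 for Mnd1, 0.96 for Dmc1, 0.664 for Rad51ap1, 0.874 for Brca2, 0.806 for Swi5 and 0.895 for Sfr1. Directions near 0 turned without single libraries, and the cause was not tested. Dmc1 gave -0.08 without knockdown library 1, -0.03 without control library 1 and -0.12 without control library 2, within a range over single libraries of -0.12 to 0.33. Sfr1 gave 0.02 without control library 1 or 2, within -0.07 to 0.02. The Mnd1 difference in mean log2(FPKM + 1), -0.03 in all libraries, ran from -0.08 to 0.05 without single libraries, with 0.05 without control library 1. It was -0.19 with the 4 libraries without Y-linked counts and -0.03 by limma with no filter, and edgeR with no filter gave a log2 fold change of -0.57. Mnd1 failed the filter of the other fits, which give it no value. Dmc1 and Rad51ap1 were below the FPKM filter, and Dmc1 below the filter after division by 4.

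Over the whole table edgeR called 0 genes, DESeq2 74, counts divided by 4 gave 1, and leaving out single libraries 0 to 6, with 6 without control library 1. With the replicate block edgeR called 0 genes, and 1048 had an unadjusted p under 0.05. The count of called genes within 100 kb of Psmc3ip was 0 under all 15 alternatives, which were added after the data were seen. In 12 of the 15, 0 genes were called over the whole table, so that count could not have differed there. With 3 libraries per group and counts of 30 to 147, differences in Dmc1 and Rad51ap1 smaller than their intervals were not detectable.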
